A study of Mus musculus with 12 samples.

Results

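In Hepa 1-6 cells, a mouse hepatoma line grown in culture, 9 genes lost most of their RNA wherever the small interfering RNA (siRNA) pool against Hcfc1 was used. The genes were Hdac11, Mettl26, Zfp383, Neil1, Gna15, Rbbp9, Mfsd13a, Fam234b and Fam219a. They are 9 of the 54532 genes in the deposited expression table, and they were picked by name for their strong falls in the groups with siHCFC1. The comparisons of those groups with their controls are therefore given as descriptions, without a test. No threshold set the choice: 129 of the 15965 genes tested fell at least as far as the weakest of the 9 in all 3 such comparisons, and 41 of the 129 had a control level at or above that of the lowest of the 9 (Gna15, 5.09 TPM, a length-corrected level).

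The cells received siRNA pools against both Esrra and Hcfc1 (siERRa+siHCFC1), against Hcfc1 (siHCFC1), against Esrra (siERRa), or a scrambled control pool (siC), with 3 libraries in each of the 4 groups. All groups were the same wild-type line, and all received 100 nM of siRNA at plating and again 48 h later, 200 nM in total, with RNA taken at 96 h. The share of each pool in siERRa+siHCFC1 is not given in the sources used here. Nothing there names separate cultures for the libraries of 1 group, so the p-values measure only how far these libraries scatter, and that scatter may be technical. Total counts ran from 21.4 to 33.2 M per library. The mitochondrially encoded share of the counts was 3.59 to 14.5% in siERRa+siHCFC1 libraries, 3.21 to 10.3% in siHCFC1 libraries, 2.92 to 10.1% in siERRa libraries and 2.37 to 6.54% in siC libraries. It was higher in each knockdown library than in the siC library of the same number, and in every group it was highest in library 2 and lowest in library 3. Its part in the results was not tested. Hcfc1 itself had 2666 to 3066 counts in siERRa+siHCFC1 cells, 1931 to 2991 in siHCFC1 cells, 3397 to 4727 in siERRa cells and 4102 to 4942 in siC cells. Its log2 change was -0.85 (SE 0.26) in siHCFC1 against siC, with an edgeR adjusted p of 0.0668, which misses the threshold of 0.05. Other fits passed it, with adjusted p of 0.0372 with DESeq2, 0.00995 without the filter, 0.00118 with a replicate block and 0.0405 without siHCFC1 library 2. The change of Hcfc1 was -0.61 in siERRa+siHCFC1 against siC (SE 0.259, edgeR adjusted p = 0.182, and 0.0107 with the block). Esrra had 377 to 486 counts in siERRa+siHCFC1 cells, 968 to 1725 in siHCFC1 cells, 224 to 396 in siERRa cells and 1085 to 1301 in siC cells. Its change of -1.97 (SE 0.265, edgeR adjusted p = 0.00702) in siERRa against siC passed. This call held in 18 of 19 alternative fits and was lost without the libraries numbered 3 (-1.78, edgeR adjusted p = 0.17). The change of Esrra was -1.44 (SE 0.26, edgeR adjusted p = 0.00478) in siERRa+siHCFC1 against siC. It was -1.71 (SE 0.262, edgeR adjusted p = 0.0866) in siERRa+siHCFC1 against siHCFC1. Of the hepatocyte markers, Alb (3540 to 7450 TPM) and Afp (992 to 2780 TPM) were abundant in every library, whereas Serpina1a was listed at 0 in all and Ttr at a median of 0.

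HCFC1 is a nuclear coregulator that binds no DNA by itself. It is brought to promoters by sequence-specific factors such as THAP11, ZNF143, GABP and YY1, and it tethers histone-modifying complexes there. ERRα, encoded by Esrra, is an orphan nuclear receptor best known for its control of mitochondrial energy metabolism.

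The RefSeq promoter windows of the 9 genes (250 bases before to 50 after the annotated start, build GRCm38.p6) were searched on both strands for the cores of elements that these factors bind. The table held 10 windows for the 9 genes, with 2 for Fam234b. The letters ACTACAA, the core of the THAP11/ZNF143 element, were found in 1 of the 9 genes (Rbbp9) and in 3.24% of all 32851 windows. CCGGAAG, an ETS and GABP core, was found in 1 (Fam219a) and in 8.86% of all windows. AAGATGG, a YY1 core, was found in 2 (Zfp383 and Neil1) and in 6.34% of all windows. AAGGTCA, the core that ERR receptors bind, was found in 0 of the 9 and in 4.72% of all windows. A longer, spaced form of the THAP11/ZNF143 element, ACTACA and TCCCA with any 2 bases between them, was added after the sequences had been read. It includes the ACTACAA match of Rbbp9, was found in 2 of the 9 genes (Rbbp9 and Zfp383) and occurs in 1.47% of all windows. It was also found in 2 of the 5 genes whose level profile was most similar to that of the 9 (Mrpl24 and Pomgnt2), of which 4 had a window, and in 1 of the 5 relatives called in siHCFC1 against siC (Nthl1). It was in 0 of the 12 windows of 10 tested neighbours, that of Cuedc2 among them. The 7-base cores did occur in windows of tested neighbours. ACTACAA was in that of Actr1a, and CCGGAAG was in windows of Zfp27 and Man2c1. AAGATGG was in windows of Wfikkn1 and Zfp27, and AAGGTCA was in a window of Zfp27. The sequences below are the 250 bases before the start of the genes with a match in this stretch, neighbours left out. They run 5′ to 3′ on the strand of the gene, and capitals mark the spaced element in the first 4 and the 7-base core in the others. They lie at chr2:144550860-144551109, minus strand (Rbbp9), chr7:29908267-29908516, plus strand (Zfp383), chr3:87919294-87919543, plus strand (Mrpl24), chr9:121996027-121996276, minus strand (Pomgnt2), chr4:41569539-41569788, minus strand (Fam219a), and chr9:57148306-57148555, minus strand (Neil1).
Rbbp9: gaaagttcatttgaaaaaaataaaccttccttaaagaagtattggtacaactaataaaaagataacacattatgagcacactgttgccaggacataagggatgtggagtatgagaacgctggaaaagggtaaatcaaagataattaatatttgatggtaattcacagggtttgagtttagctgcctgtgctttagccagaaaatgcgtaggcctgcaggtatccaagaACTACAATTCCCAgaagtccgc
Zfp383: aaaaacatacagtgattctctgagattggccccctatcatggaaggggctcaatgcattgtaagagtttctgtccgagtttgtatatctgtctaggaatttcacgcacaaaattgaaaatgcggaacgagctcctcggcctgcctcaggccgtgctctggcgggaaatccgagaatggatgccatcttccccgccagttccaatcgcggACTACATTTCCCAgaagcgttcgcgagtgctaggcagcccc
Mrpl24: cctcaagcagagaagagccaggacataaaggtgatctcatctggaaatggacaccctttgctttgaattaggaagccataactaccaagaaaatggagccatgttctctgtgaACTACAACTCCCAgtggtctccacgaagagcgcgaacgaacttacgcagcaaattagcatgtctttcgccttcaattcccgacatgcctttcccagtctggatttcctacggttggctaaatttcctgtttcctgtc
Pomgnt2: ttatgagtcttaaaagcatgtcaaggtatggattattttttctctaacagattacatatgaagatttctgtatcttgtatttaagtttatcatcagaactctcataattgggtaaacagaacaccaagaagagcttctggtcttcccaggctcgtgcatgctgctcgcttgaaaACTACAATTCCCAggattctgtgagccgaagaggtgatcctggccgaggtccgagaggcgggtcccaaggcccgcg
Fam219a: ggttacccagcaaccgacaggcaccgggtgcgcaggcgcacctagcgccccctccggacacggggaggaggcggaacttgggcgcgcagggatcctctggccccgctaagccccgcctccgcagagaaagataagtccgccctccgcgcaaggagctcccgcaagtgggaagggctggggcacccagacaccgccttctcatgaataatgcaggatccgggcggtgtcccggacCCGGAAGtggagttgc
Neil1: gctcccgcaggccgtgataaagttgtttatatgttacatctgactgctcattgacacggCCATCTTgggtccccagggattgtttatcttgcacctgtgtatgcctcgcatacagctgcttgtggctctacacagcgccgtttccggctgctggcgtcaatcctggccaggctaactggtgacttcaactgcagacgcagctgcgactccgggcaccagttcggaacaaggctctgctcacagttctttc

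In the printed stretches the spaced element lay 22 to 10 bases before the start of Rbbp9, 41 to 29 bases before that of Zfp383, 76 to 64 bases before that of Pomgnt2 and 137 to 125 bases before that of Mrpl24. In all 4 it read in the direction of the gene. The CCGGAAG of Fam219a lay 16 to 10 bases before its start, and the AAGATGG matches, both on the opposite strand, lay 191 to 185 bases before the start of Neil1 and 69 to 63 bases before that of Zfp383. The windows of the 9 genes also differed in base composition. That of Rbbp9 had a GC content of 41.7% and 4 CpG sites, and the others reached 69.7% and 31 sites (Fam234b), against a median of 52.7% and 7 sites over all windows. The starts that RefSeq gives are not always those of the deposited table. The printed stretches of Zfp383 and Pomgnt2 and the window of Mfsd13a lie inside the deposited spans of these genes, and those of Rbbp9 and Mrpl24 reach past the deposited start. Those of Fam219a and Neil1 end just before it. A match of letters says only that they stand in this window.

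The levels below are in TPM, a unit of transcript abundance corrected for gene length and sequencing depth, and are given in the order of libraries 1, 2 and 3. Changes are log2 changes of read counts from edgeR. Hdac11, the class IV histone deacetylase that also removes fatty acyl groups from proteins, lies at chr6:91156665-91174692 on the plus strand of the build named by the submitters, mm10. It had 1.67, 0.715 and 0.776 TPM in siERRa+siHCFC1 cells, 0.376, 0.422 and 1.65 TPM in siHCFC1 cells, 3.79, 4.81 and 7.96 TPM in siERRa cells and 8.75, 6.97 and 12.7 TPM in siC cells. Every library with siHCFC1 was below every library without it, and the change was -3.38 (SE 0.562) in siHCFC1 against siC and -3.03 (SE 0.552) in siERRa+siHCFC1 against siC. The value in siHCFC1 rests partly on library 3, which had 61 counts beside 10 and 15 in libraries 1 and 2, and without it the change was -4.32. Of the exon bases of Hdac11, 17.9% are also covered by genes on the opposite strand, Gm14573 and Gm44002. The libraries were unstranded, and reads from the 2 strands of such an overlap cannot be told apart.

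Zfp383, a gene of the zinc finger transcription factor family (chr7:29908223-29916813, plus strand), had 2.37, 1.34 and 1.73 TPM in siERRa+siHCFC1 cells, 0.991, 0.676 and 0 TPM in siHCFC1 cells, 6.34, 5.93 and 8.22 TPM in siERRa cells and 8.13, 7.53 and 7.81 TPM in siC cells. The 3 siERRa+siHCFC1 libraries all lay above the 3 siHCFC1 libraries and below every library without siHCFC1. The change was -3.66 (SE 0.737) in siHCFC1 against siC and -1.99 (SE 0.67) in siERRa+siHCFC1 against siC, so that 8.04% of the siC level was left in siHCFC1 cells and 25.2% in siERRa+siHCFC1 cells, in CPM (counts scaled to library size).

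Neil1, a DNA glycosylase that removes oxidised bases in base excision repair (chr9:57142800-57148305, minus strand), was ordered the other way. It had 0.25, 0.704 and 0 TPM in siERRa+siHCFC1 cells, 1.24, 0.753 and 2.12 TPM in siHCFC1 cells, 4.2, 8.26 and 7.30 TPM in siERRa cells and 7.16, 7.97 and 3.86 TPM in siC cells. All siERRa+siHCFC1 libraries lay below all siHCFC1 libraries. The change was -2.08 (SE 0.793) in siHCFC1 against siC and -4.07 (SE 0.895) in siERRa+siHCFC1 against siC, with only 4, 11 and 0 counts behind the siERRa+siHCFC1 values and 16, 13 and 38 behind those of siHCFC1. Without siERRa+siHCFC1 library 2 the second change was -5.56, and with limma on log2(TPM + 0.5) it was -3.10.

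Gna15 encodes a G protein alpha subunit of the Gq class, which couples receptors to phospholipase C beta (chr10:81502306-81524225, minus strand). It had the lowest siC level of the 9, with 0.657, 1.01 and 1.24 TPM in siERRa+siHCFC1 cells, 0.745, 0 and 0.0977 TPM in siHCFC1 cells, 2.98, 1.02 and 5.18 TPM in siERRa cells and 3.23, 4.29 and 7.75 TPM in siC cells. Its siERRa+siHCFC1 and siERRa ranges overlapped, which was the case for no other of the 9. The siHCFC1 values rest on 11, 0 and 2 counts, and the change of -4.11 (SE 1.04) against siC was -6.34 without siHCFC1 library 1 and -3.52 without siHCFC1 library 2. In siERRa+siHCFC1 against siC it was -2.24 (SE 0.927).

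Mettl26, a methyltransferase-like gene of little known function (chr17:25875464-25886007, plus strand), was the most abundant of the 9. It had 12.9, 7.67 and 7.39 TPM in siERRa+siHCFC1 cells, 14.9, 8.41 and 6.40 TPM in siHCFC1 cells, 111, 89.8 and 147 TPM in siERRa cells and 109, 94.3 and 135 TPM in siC cells. Its change of -3.37 (SE 0.334) in siHCFC1 and -3.46 (SE 0.335) in siERRa+siHCFC1, each against siC, had the smallest standard errors of the 9 genes, and its 68 to 122 counts in the libraries with siHCFC1 stood against 780 to 1879 in those without it.

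Rbbp9, a serine hydrolase first described as a partner of the retinoblastoma protein (chr2:144542265-144550869, minus strand), had 10.2, 0.253 and 1.08 TPM in siERRa+siHCFC1 cells, 3.06, 1.65 and 3.58 TPM in siHCFC1 cells, 34.5, 28.3 and 38.9 TPM in siERRa cells and 34.0, 24.8 and 26.7 TPM in siC cells. All libraries with siHCFC1 were below all others, but those with siERRa+siHCFC1 differed widely among themselves, with 207, 5 and 23 counts. The change was -3.23 (SE 0.766) in siHCFC1 against siC and -2.79 (SE 0.747) in siERRa+siHCFC1 against siC, and the second was -5.31 without siERRa+siHCFC1 library 1. In the authors' deposited table this second change is -2.78 with an adjusted p of 1, and the change in siHCFC1 against siC is -3.20. Both comparisons were behind the choice of the gene, so no support is read from them.

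Mfsd13a belongs to the major facilitator superfamily of membrane transporters (chr19:46341121-46375252, plus strand). It had 5.21, 2.43 and 2.53 TPM in siERRa+siHCFC1 cells, 6.96, 5.91 and 3.72 TPM in siHCFC1 cells, 22.8, 36.4 and 21 TPM in siERRa cells and 24.6, 33.8 and 26.6 TPM in siC cells. The groups with siHCFC1 overlapped each other and lay well below the rest, with a change of -2.20 (SE 0.354) in siHCFC1 against siC and -2.94 (SE 0.367) in siERRa+siHCFC1 against siC.

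Fam234b, which encodes a predicted membrane protein (chr6:135197977-135244955, plus strand), had 1.49, 1.51 and 1.33 TPM in siERRa+siHCFC1 cells, 2.13, 2.31 and 0.589 TPM in siHCFC1 cells, 9.90, 14.5 and 10.4 TPM in siERRa cells and 12, 25.6 and 17.5 TPM in siC cells. The change was -3.28 (SE 0.457) in siHCFC1 against siC and -3.53 (SE 0.462) in siERRa+siHCFC1 against siC.

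Fam219a, a gene without a well-described function (chr4:41517691-41569538, minus strand), had 0.534, 0.418 and 0 TPM in siERRa+siHCFC1 cells, 1.09, 0.640 and 0.588 TPM in siHCFC1 cells, 3.29, 4.01 and 4.21 TPM in siERRa cells and 7.64, 3.26 and 7.89 TPM in siC cells. The siERRa+siHCFC1 libraries, with 17, 13 and 0 counts, all lay below the siHCFC1 libraries, with 28, 22 and 21 counts. The change was -2.86 (SE 0.74) in siHCFC1 against siC and -4.09 (SE 0.797) in siERRa+siHCFC1 against siC, and the second was -3.03 with limma on log2(TPM + 0.5). Genes on the opposite strand cover 15.6% of its exon bases.

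**Figure D1:**
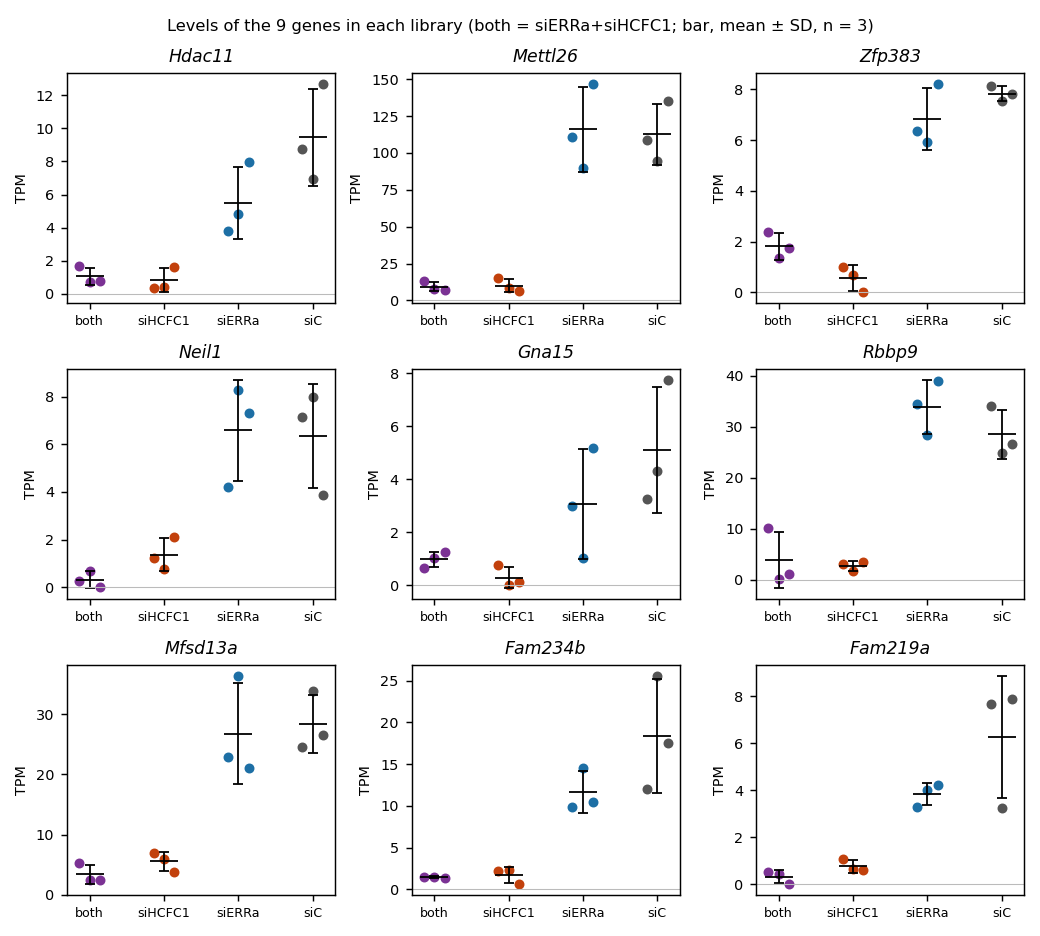
Level in TPM (linear axes, a scale of its own in each panel) of the 9 genes in the 3 libraries (points) of each group, with the group mean and SD as bars; "both" is siERRa+siHCFC1. In all 9 panels the siERRa+siHCFC1 and siHCFC1 points lie below every siC point, and siERRa and siC points overlap; Gna15 is the panel in which a siERRa point reaches the siERRa+siHCFC1 range.

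Over the 9 genes the median log2 change was -3.28 in siHCFC1 against siC, -3.03 in siERRa+siHCFC1 against siC and -2.91 in siERRa+siHCFC1 against siERRa, where the medians of all 15965 genes tested were 0.002, -0.006 and -0.007. These comparisons share control libraries and were the ones used to pick the genes. The siHCFC1 libraries lay below all siC libraries in 9 of 9 genes, as they did in 15.8% of all genes. The siERRa+siHCFC1 libraries lay below all siC libraries in 9 of 9, as in 16.7% of all genes, and below all siERRa libraries in 8 of 9, as in 11.4% of all genes. Because of the choice, nothing is read from these counts. The level left in siHCFC1 cells ran from 5.87% of siC (Gna15) to 23.4% (Neil1), and in siERRa+siHCFC1 cells from 5.96% (Fam219a) to 25.2% (Zfp383), as ratios of mean CPM. Of the 108 values of the 9 genes in the 12 libraries, 4 were at 0 counts, and all 4 were in libraries with siHCFC1 (Neil1 and Fam219a in siERRa+siHCFC1 library 3, Gna15 in siHCFC1 library 2 and Zfp383 in siHCFC1 library 3). A count of 0 allows up to 3 counts there, or 0.103 to 0.111 CPM in these libraries, so absence of the RNA was not shown at this depth.

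Whether ERRα knockdown moved the same genes was not part of the choice and was tested, with the caution that the test shares libraries with it. In siERRa against siC 0 of the 9 genes passed an adjusted p of 0.05 in edgeR's quasi-likelihood test over all genes, where 0.438% of all genes did. The lowest adjusted p was 0.707 (Fam234b, -0.62, SE 0.413). An unadjusted p below 0.05 was reached by 0 of the 9 and by 1640 of all 15965 genes. The changes ran from -0.71 (Hdac11, SE 0.504) to 0.30 (Rbbp9, SE 0.685), with 6 below and 3 above 0, and in 0 of 9 genes were the siERRa and siC libraries fully apart, as they were in 16.3% of all genes. With the library number as a replicate block, which raised the share of all genes called to 10.2%, 0 of the 9 were called and the lowest adjusted p was 0.191 (Fam234b, -0.59, SE 0.267). Standard errors of up to 0.878 (Gna15) leave room for moderate or larger changes. Among genes simulated with a change in siERRa against siC, the test recovered 12 of 67 changed 2-fold and 50 of 66 changed 4-fold. Those genes were drawn from all but the lowest and were not matched to the 9 in level or scatter. Their shares therefore do not give the recovery for the 9.

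The second test asked whether adding siERRa to siHCFC1 moved the genes further. The low values of both groups entered the choice of the genes, though the difference between them did not, so this test is not independent of the choice. In siERRa+siHCFC1 against siHCFC1 0 of the 9 were called, as were 0.00626% of all genes (1 gene). An unadjusted p below 0.05 was reached by 2 of the 9 and by 1159 of all 15965 genes. The changes differed in sign among the genes. Zfp383 stood at 1.68 (SE 0.711, edgeR adjusted p = 0.653) and Gna15 at 1.87 (SE 0.992, edgeR adjusted p = 0.771), both with higher mean levels in siERRa+siHCFC1. Neil1 stood at -1.98 (SE 0.864, edgeR adjusted p = 0.663), Fam219a at -1.23 (SE 0.765, edgeR adjusted p = 0.875) and Mfsd13a at -0.74 (SE 0.354, edgeR adjusted p = 0.699), with lower mean levels in siERRa+siHCFC1. The other 4 lay between -0.25 (Fam234b) and 0.44 (Rbbp9). Single libraries weighed heavily: Rbbp9 was at -2.09 without siERRa+siHCFC1 library 1, Neil1 at -3.49 without siERRa+siHCFC1 library 2 and Gna15 at 4.11 without siHCFC1 library 1, and Hdac11 (0.35) was at 1.30 without siHCFC1 library 3 and at -0.13 without siERRa+siHCFC1 library 1. The 2 groups were fully apart in 3 of the 9 genes (Zfp383, Neil1 and Fam219a), as in 11.3% of all genes. With the replicate block 3.52% of all genes were called and again 0 of the 9, the lowest adjusted p being 0.131 (Zfp383, 1.76, SE 0.612) and 0.157 (Neil1, -2.23, SE 0.823).

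The departure from additivity, which is the change in siERRa+siHCFC1 cells less both changes with a single pool, each against siC, ran from -2.10 (Neil1, SE 1.14) to 2.55 (Gna15, SE 1.32), and it uses the same siHCFC1 libraries. It was -3.62 for Neil1 without siERRa+siHCFC1 library 2 and 4.78 for Gna15 without siHCFC1 library 1, and for Rbbp9 it was 0.14 with all libraries and -2.41 without siERRa+siHCFC1 library 1. In edgeR 0 of the 9 were called and all adjusted p were 1; 0 of all genes were called, 439 had an unadjusted p below 0.05, and DESeq2 called 5. With the replicate block 0.144% of all genes were called, none of the 9 among them, and the lowest adjusted p was 0.442 (Zfp383). In the authors' deposited table, too, the adjusted p of the 9 genes was at least 0.464 in siERRa against siC and at least 0.996 in siERRa+siHCFC1 against siHCFC1.

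**Figure D2:**
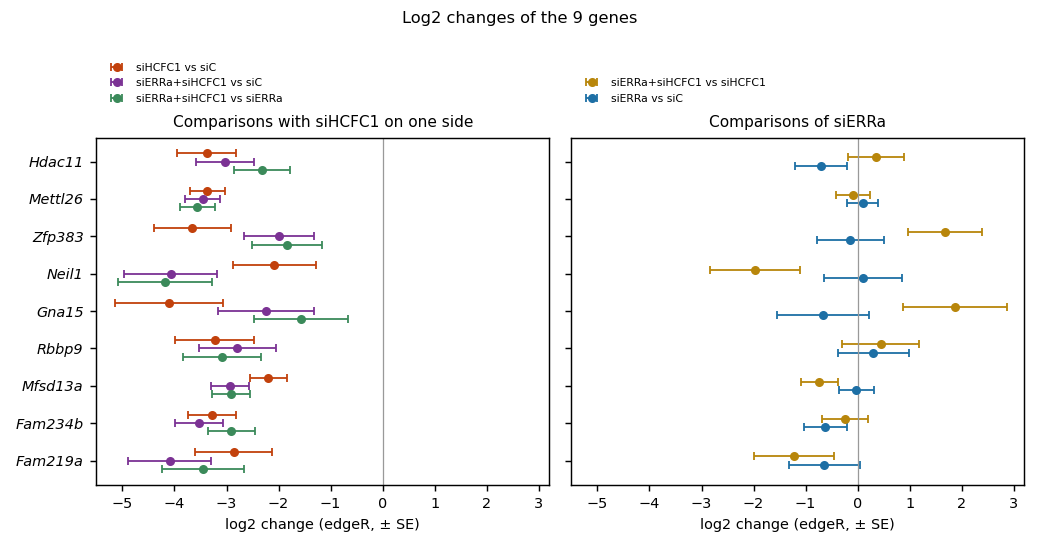
Log2 change with its standard error for each of the 9 genes, on the left in the 3 comparisons that used siHCFC1 on one side (the ones behind the choice, shown without a test) and on the right in the 2 comparisons of siERRa. The left-hand values lie between -4.18 and -1.57; on the right Zfp383 and Gna15 lie above 0 and Neil1 below it in siERRa+siHCFC1 against siHCFC1, none past the adjusted threshold.

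The chromosomal surroundings of the genes were not used in choosing them. The deposited annotation places 27 other genes over or within 5 kb of the 9, of which 14 overlap one of them and 12 were expressed highly enough to be tested. In siHCFC1 against siC 2 of the 12 fell, where 4.22% of all genes were called lower, and 0 rose, where 2.46% were called higher. In siERRa+siHCFC1 against siC 1 fell (4.06% of all genes) and 0 rose (2.83%). The median change of the 12 was -0.77 and -0.72 in these comparisons, against 0.00 and -0.01 over all genes. The 12 are unevenly spread, as Cuedc2, Actr1a, Gm26792 and 2310034G01Rik all belong to Mfsd13a. Some of the larger falls rest on low counts, such as 1110017D15Rik at -6.94 (SE 2.93) in siHCFC1 against siC. Rab40c (-0.06, SE 0.197) and Polr3f (-0.16, SE 0.173) changed little there.

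Both genes that fell flank Mfsd13a on chromosome 19. Cuedc2, which encodes a ubiquitin-binding CUE domain protein (chr19:46329812-46338660, minus strand), starts 2461 bases from the deposited start of Mfsd13a and is read away from it. The RefSeq window of Mfsd13a (chr19:46356630-46356929) lies farther from Cuedc2, inside the deposited span of Mfsd13a. Cuedc2 had 18.7, 10.9 and 13.9 TPM in siERRa+siHCFC1 cells, 12.9, 15.9 and 12.3 TPM in siHCFC1 cells, 63.7, 61.0 and 49.7 TPM in siERRa cells and 79.8, 76.1 and 62.5 TPM in siC cells. All libraries with siHCFC1 were thus far below all libraries without it. The change was -2.24 (SE 0.236, edgeR adjusted p = 0.000135) in siHCFC1 against siC, much like the -2.20 of Mfsd13a, and -2.21 (SE 0.236, edgeR adjusted p = 0.000263) in siERRa+siHCFC1 against siC. Of its exon bases 24.3% overlap Fbxl15 and Gm26792 on the other strand, so its reads are partly uncertain. Gm26792, which lies in the same interval, had only 6 to 39 counts in the libraries with siHCFC1, and its change of -1.32 (SE 0.736) was not called. Actr1a, a subunit of the dynactin motor complex on the other side of Mfsd13a, had 132, 62.8 and 122 TPM in siERRa+siHCFC1 cells, 105, 72.3 and 114 TPM in siHCFC1 cells, 200, 125 and 165 TPM in siERRa cells and 207, 162 and 195 TPM in siC cells. Its change of -0.81 (SE 0.223) in siHCFC1 against siC passed narrowly with an edgeR adjusted p of 0.0434, and the call was lost in 13 of 19 alternative fits. In siERRa+siHCFC1 against siC it was -0.74 (SE 0.222, edgeR adjusted p = 0.0618).

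Around the other genes no tested neighbour was called in siHCFC1 against siC without the replicate block. Polr3f, a subunit of RNA polymerase III whose span ends 270 bases from Rbbp9, was at -0.16 (SE 0.173, edgeR adjusted p = 0.68). Zfp27, which starts 1651 bases from Zfp383 and is read away from it, was at -0.35 (SE 0.282, edgeR adjusted p = 0.54). Man2c1, an alpha-mannosidase gene 78 bases from the end of Neil1, was at -0.72 (SE 0.386, edgeR adjusted p = 0.317), and Gna11, the neighbour of Gna15 that encodes a related alpha subunit, was at -0.63 (SE 0.224, edgeR adjusted p = 0.113). With the replicate block in edgeR both were called, at an adjusted p of 0.00863 for Man2c1 and 0.000448 for Gna11. Gna11 was also at -0.61 (SE 0.223, edgeR adjusted p = 0.328) in siERRa against siC. It was at -0.10 (SE 0.223) in siERRa+siHCFC1 against siERRa. Man2c1 was at 0.49 (SE 0.382) and -1.01 (SE 0.386) in these 2 comparisons, neither called. Of the genes that overlap Mettl26, Rab40c, which shares 3894 bases with it, was at -0.06 and Wfikkn1, which lies within it, at 0.35; Gm26694, which spans Mettl26 on the same strand and shares 94.5% of its sequence words of 31 bases with other genes, was at -1.68 (SE 0.855, edgeR adjusted p = 0.287). Hebp1, whose span overlaps that of Fam234b by 46 bases at the starts of both genes, was nearly silent, with 12 counts in all siC libraries together, and was not tested. Likewise Dnaic1, which starts 237 bases from Fam219a, had 6 counts in siC. The genes antisense to exons of Hdac11 were listed at 0 in siERRa+siHCFC1, siHCFC1 and siC cells. The low genes 1110017D15Rik, beside Fam219a (48 counts in siC), and 2310034G01Rik, which overlaps Mfsd13a (55 counts in siC), were tested but not called. Without siHCFC1 library 2, 2310034G01Rik was called in siHCFC1 against siC (-7.2, edgeR adjusted p = 0.0399). It had 0 counts in siHCFC1 libraries 1 and 3. In siERRa against siC and in siERRa+siHCFC1 against siHCFC1 0 of the 12 neighbours were called.

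**Figure D3:**
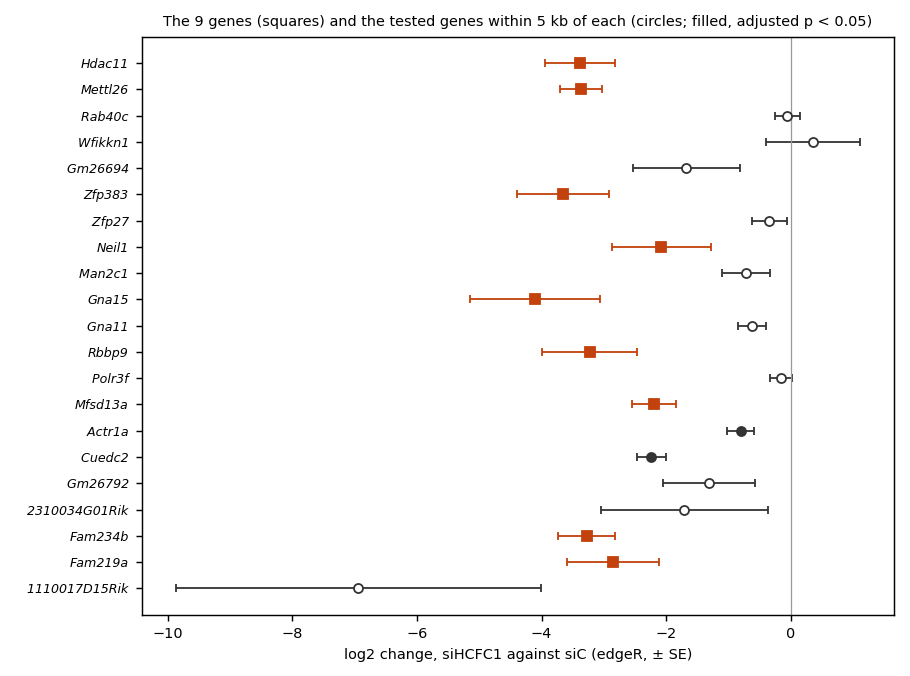
Log2 change with its standard error in siHCFC1 against siC for the 9 genes (squares, shown without a test) and, under each, its tested neighbours within 5 kb (circles, filled where the adjusted p was below 0.05). Cuedc2, beside Mfsd13a, lies at -2.24, whereas Polr3f beside Rbbp9 and Rab40c beside Mettl26 lie near 0; the wide bar of 1110017D15Rik belongs to a gene at 0 counts in all siHCFC1 libraries.

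Genes of the same families or pathways as the 9 were listed from general knowledge, 100 in 7 lists, and 79 were tested. Earlier results of these data were known by then, so the shares of all genes beside the list counts are a description only. In siHCFC1 against siC 2 of the 79 rose and 3 fell, against 2.46% and 4.22% of all genes, and the median change of the 79 was 0.03. With the replicate block 22 relatives and 3974 of all genes were called. The calls of each list below are without the block. None of the other 10 histone deacetylases, which remove acetyl groups from histones and other proteins, was called (median -0.01). The values of Hdac1 to Hdac8 ran from -0.30 to 0.20, and that of Hdac10, the lowest of the list, was -0.61 (SE 0.35, edgeR adjusted p = 0.354). Hdac9 had the highest value, 1.62 (SE 1.48, edgeR adjusted p = 0.602), on 14 to 76 counts in siHCFC1 libraries and 3 to 24 in siC libraries. None of the 12 tested G alpha subunits and phospholipase C beta genes was called (median 0.11). Gnaq, a Gq-class subunit, was at 0.59 (SE 0.207, edgeR adjusted p = 0.108). Gna11, of the same class, was at -0.63 (SE 0.224, edgeR adjusted p = 0.113). None of the 5 Rbbp genes, named for retinoblastoma binding but unrelated to Rbbp9 in sequence family, was called, with values from -0.20 to 0.33. None of the 13 Mfsd genes was called (median 0.07). Mfsd3 came closest, with a change as large as that of Mfsd13a: it was at -2.24 (SE 0.643, edgeR adjusted p = 0.051) in siHCFC1 against siC and at -2.13 (SE 0.639, edgeR adjusted p = 0.0601) in siERRa+siHCFC1 against siC, on 10 to 26 counts in siERRa+siHCFC1 libraries, 11 to 24 in siHCFC1 libraries and 54 to 149 in siC libraries. Neither Fam219b (-0.31, SE 0.244) nor Fam234a (0.24, SE 0.285) was called.

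The relatives called were in base excision repair, the pathway of Neil1, and among the methyltransferase-like genes. Of 17 tested repair genes 3 fell in siHCFC1 against siC, where 4.22% of all genes were called lower, and 0 rose, where 2.46% were called higher. The list median was -0.33, and these 3 were also the only falls among all 79 relatives in this comparison. Nthl1, another glycosylase for oxidised pyrimidines, had 8.12, 6.10 and 4.2 TPM in siERRa+siHCFC1 cells, 2.94, 5.22 and 7.63 TPM in siHCFC1 cells, 33.6, 24.2 and 18.7 TPM in siERRa cells and 28.1, 38.1 and 26.4 TPM in siC cells. Every library with siHCFC1 was below every library without it, and the change was -2.39 (SE 0.414, edgeR adjusted p = 0.00382), close in size to that of Neil1. The window of Nthl1 also held the spaced element, on the opposite strand and across its start. Ung, the uracil glycosylase, averaged 3.62 ± 0.677 TPM in siHCFC1 cells and 9.20 ± 0.421 TPM in siC cells (SD, n = 3 each), a change of -1.19 (SE 0.253, edgeR adjusted p = 0.0126). The call of Ung in siHCFC1 against siC ended without siC library 1 (-1.17), siC library 2 (-1.12) or siHCFC1 library 1 (-1.0). It also ended without the libraries numbered 3 (-1.31, edgeR adjusted p = 0.0926). Parp1, which binds DNA breaks and builds poly(ADP-ribose), averaged 37.4 ± 7.66 TPM in siHCFC1 cells and 86.9 ± 6.84 TPM in siC cells (SD, n = 3 each). Its change was -1.07 (SE 0.174, edgeR adjusted p = 0.0026), and this call ended without the libraries numbered 3 (-1.01, edgeR adjusted p = 0.0596). Neil3, another glycosylase of the Neil family, did not pass (0.20, SE 0.349, edgeR adjusted p = 0.821).

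In siERRa+siHCFC1 against siC 5 of the 17 repair genes fell, where 4.06% of all genes were called lower, and 0 rose, where 2.83% were called higher. They were Nthl1 (-2.18, SE 0.41), Ung (-1.42, SE 0.255), Parp1 (-0.95, SE 0.174), the endonuclease gene Apex2 (-0.83, SE 0.238) and the scaffold gene Xrcc1 (-0.61, SE 0.175), with edgeR adjusted p between 0.00455 and 0.0493. Without the libraries numbered 3 the calls of Ung and Parp1 were lost (edgeR adjusted p = 0.0545 and 0.0785). In siERRa+siHCFC1 against siERRa, Nthl1 (-1.94, SE 0.408) and Parp1 (-0.67, SE 0.173) were called, at edgeR adjusted p of 0.02 and 0.0496. Ung (-0.66, SE 0.252), Apex2 (-0.48, SE 0.237) and Xrcc1 (-0.38, SE 0.175) were not called, at 0.187, 0.32 and 0.286. In siERRa against siC, without the replicate block, the only one of the 79 relatives called was Tdg, the thymine DNA glycosylase. It was at 0.90 (SE 0.165, edgeR adjusted p = 0.0348), where 0.138% of all genes were called higher. With the block 11 relatives and 10.2% of all genes were called. Tdg shares 48.0% of its sequence words with other genes, so its counts are uncertain.

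Of 20 other tested methyltransferase-like genes, 2 rose in siHCFC1 against siC, where 2.46% of all genes were called higher, and 0 fell, where 4.22% were called lower. Mettl2, a tRNA methyltransferase gene, averaged 35.9 ± 8.39 TPM in siHCFC1 cells and 14.9 ± 1.48 TPM in siC cells (SD, n = 3 each), a rise of 1.41 (SE 0.178, edgeR adjusted p = 0.000529). Mettl16, an RNA methyltransferase gene, averaged 8.77 ± 1.47 TPM in siHCFC1 cells and 4.25 ± 0.576 TPM in siC cells (SD, n = 3 each), a rise of 1.2 (SE 0.19, edgeR adjusted p = 0.00232). The list median was -0.05. In siERRa+siHCFC1 against siC Mettl2 (1.55), Mettl16 (0.95) and Mettl27 (1.02) rose and Mettl5 (-1.28) fell, with edgeR adjusted p between 0.000403 and 0.0159, against 2.83% of all genes called higher and 4.06% called lower. The call of Mettl16 in this comparison was lost with limma on log2(TPM + 0.5) and log2(TPM + 0.1) (adjusted p = 0.0954 and 0.1) and without the libraries numbered 3 (adjusted p = 0.06). The Mfsd gene called there was Mfsd12, at -0.94 (SE 0.208, edgeR adjusted p = 0.0145), but 29.8% of its exon bases overlap other genes.

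**Figure D4:**
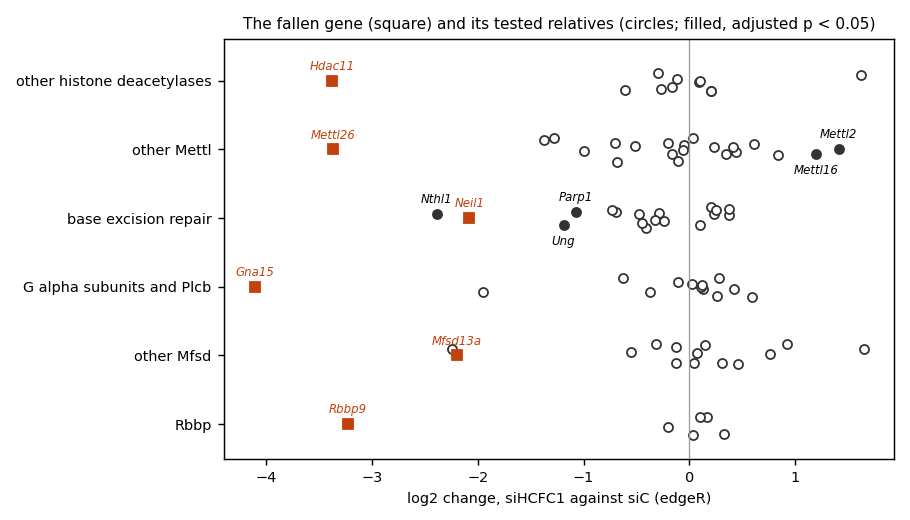
Log2 change in siHCFC1 against siC of 6 of the 9 genes (squares, shown without a test) and of the tested genes of the same family or pathway (circles, filled and named where the adjusted p was below 0.05). Nthl1 at -2.39 lies beside Neil1 at -2.08, Mettl2 and Mettl16 lie on the other side of 0 from Mettl26, and the histone deacetylases, G protein and Rbbp rows have no filled circle.

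Among the 5 genes other than the 9 with the most similar profile over the 12 libraries, as the root mean square distance between their centred log2(CPM + 0.5) and the median profile of the 9, the nearest was Cul7, a scaffold of a ubiquitin ligase (distance 0.346). It averaged 0.699 ± 0.373 TPM in siERRa+siHCFC1 cells, 0.649 ± 0.324 TPM in siHCFC1 cells, 5.50 ± 0.57 TPM in siERRa cells and 5.35 ± 1.43 TPM in siC cells (SD, n = 3 each). Mrpl24, a protein of the mitochondrial ribosome (0.405), averaged 11.1 ± 4.28 TPM in siERRa+siHCFC1 cells, 5.80 ± 0.942 TPM in siHCFC1 cells, 58.6 ± 3.49 TPM in siERRa cells and 56.5 ± 6.31 TPM in siC cells (SD, n = 3 each). Kctd17 (0.407), Pomgnt2 (0.432) and Smim26 (0.432) followed. The distances of the 9 genes themselves ran from 0.384 (Mfsd13a) to 0.818 (Rbbp9), so Cul7 lay closer to the median profile than any of them. These genes were found by this measure and get no test.

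Markers of other cell types moved with the groups in 2 cases. The summed level of the cholangiocyte markers Krt19 and Epcam was 33.4 to 81.8 TPM in siERRa+siHCFC1 cells, 23.8 to 64.3 TPM in siHCFC1 cells, 108 to 189 TPM in siERRa cells and 83.5 to 141 TPM in siC cells. The sum of the 3 blood markers, nearly all Cd68, was 67.5 to 100.0 TPM in siERRa+siHCFC1 cells, 75.5 to 138 TPM in siHCFC1 cells, 109 to 152 TPM in siERRa cells and 166 to 225 TPM in siC cells, while the defining blood marker Ptprc did not exceed 0.0285 TPM. All groups were the same cultured hepatoma line, so these levels are read as those of its cells, not as other cell types. Whether all cells of the line or only some of them changed cannot be told in these bulk libraries. The part of these shifts in the levels of the 9 genes was not tested.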

How the data were processed

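RNA of 12 Hepa 1-6 libraries, 3 per group, was analysed from tables deposited by the authors. These hold whole-number read counts per gene and the authors' log2 fold changes and adjusted p-values per comparison, and a further deposited table holds TPM. The submitters' processing notes name HISAT2 2.0.5, featureCounts 1.5.0-p3, DESeq2 1.20.0 and mm10. The count tables were merged to 24326 genes (254217 cells shared between tables, 0 different; 5451 blanks set to 0), and 60 normalized columns were not used. The 4 deposited TPM columns numbered 4 tracked the counts of library 3 (r at least 0.991) and were taken as its values.

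Genes passing filterByExpr (15965) were tested with edgeR 4.0.16 (R 4.3.3; TMM, quasi-likelihood, 4 group means, 8 residual degrees of freedom). A gene is called at a Benjamini-Hochberg adjusted p below 0.05 over all genes. Alternatives were RLE scaling, no filter, DESeq2 1.42.0, limma 3.58.1 on log2(TPM + 0.5) and log2(TPM + 0.1), a replicate block, each library left out, and a 1 kb limit for neighbours. The genes described and the lists were chosen with earlier results of these data known. Named genes are the 9, Esrra and Hcfc1, their tested neighbours, called relatives (at most 3 per list by adjusted p in siHCFC1 against siC; others called were named after their values were seen, as were single uncalled relatives), and the 5 nearest profiles with at least 5 TPM in siC and no predicted name. Same-numbered libraries deviated together in siERRa and siC (r 0.166 to 0.525) and in siERRa+siHCFC1 and siHCFC1 (r 0.14 to 0.461). Blocked values are given beside those results. The same was seen in siHCFC1 and siC (r 0.0996 to 0.4675) and in siERRa+siHCFC1 and siC (r 0.0612 to 0.4681). Most calls in these comparisons are nonetheless given without the block, and the blocked counts stand in the closing section. The test was run on simulated data. Depths leave counting error only in limits from a count of 0. Exon overlaps and shared 31-base words come from GENCODE M21; 8 of 9 genes lie at the same position there.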

Additional observations from a re-analysis of the deposited data

How the results depend on the processing

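The 9 genes kept 0 calls in siERRa against siC, siERRa+siHCFC1 against siHCFC1 and the departure under all 19 alternatives, and their median changes stayed between -3.53 and -2.62 in the comparisons behind their choice. With the libraries numbered 3 left out, a setting chosen after seeing the data, 259 genes were called in siHCFC1 against siC (1066 with all), 269 in siERRa+siHCFC1 against siC (1100) and 1 in siERRa against siC (70); relatives called were 3 (5), 2 (10) and 0 (1), neighbours in siHCFC1 against siC 1 (2), and 0 genes in siERRa+siHCFC1 against siHCFC1 (1). Leaving out 1 library gave 420 to 1130, 476 to 1271 and 8 to 100 genes in the 3 comparisons with siC, and 0 to 3 in siERRa+siHCFC1 against siHCFC1. It gave 1 to 2 neighbours in siHCFC1 and in siERRa+siHCFC1 against siC, and 4 to 6, 6 to 12 and 0 to 1 relatives in the order of comparisons above. The replicate block takes same-numbered libraries as pairs, and their deviations correlated positively in the comparisons with siC too (r at least 0.0612). With the block 3974 genes, 22 relatives and 4 neighbours were called in siHCFC1 against siC and 4067, 25 and 3 in siERRa+siHCFC1 against siC. It gave 1625 genes and 11 relatives in siERRa against siC, 562 genes in siERRa+siHCFC1 against siHCFC1 and 23 for the departure. DESeq2 called 1850, 1904, 396, 91 and 5 genes in these 5 comparisons, 10, 17 and 2 relatives, and 3 neighbours in siERRa+siHCFC1 against siC. Without the filter 313, 82 and 14 genes were called in siERRa against siC, siERRa+siHCFC1 against siHCFC1 and the departure, 9 relatives in siHCFC1 against siC and 3 neighbours in siERRa+siHCFC1 against siC. On log2(TPM + 0.5) and log2(TPM + 0.1), 17 and 9 genes and 0 relatives were called in siERRa against siC, 1 neighbour in siHCFC1 against siC, and 0 and 3 genes in siERRa+siHCFC1 against siHCFC1, and 1 gene for the departure with 0.1. RLE scaling called 0 genes in siERRa+siHCFC1 against siHCFC1. Within 1 kb 0 neighbours were called in either comparison. The cause of these shifts was not tested. Cuedc2 kept its calls in all alternatives of siHCFC1 and siERRa+siHCFC1 against siC. Low counts limit Gna15, Neil1, Fam219a and Zfp383 in the libraries with siHCFC1.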
